A study of Cucumis x hytivus and Cucumis hystrix and Cucumis sativus with 8 samples.

Results

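Of the 733 different mature sequences that the authors' small RNA table lists for Cucumis leaves, 28 carry the name of one of 6 families: miR5368 with 9 sequences, miR5072 with 5, miR6173, miR894 and miR4995 with 4 each, and miR2916 with 2. They were chosen by family name alone, with no use of their read numbers, and each sequence was counted once however many loci it was listed at. The 28 sequences occupied 32 of the 843 lines of the table, because 4 of them were listed at 2 loci. All 8 libraries came from leaves, in 4 groups of 2 libraries: young leaf of the synthetic allotetraploid C. ×hytivus, mature leaf of the same allotetraploid, mature leaf of its diploid parent C. hystrix and mature leaf of its other diploid parent, the C. sativus (cucumber) cultivar BeijingJietou. The allotetraploid plants were of selfing generation 10. A young leaf was the first one counted from the top of the plant, and a mature leaf was the first to be fully developed. All plants shared 1 growth regime in climate chambers, at 25 °C for 14 h of day and 20 °C for 10 h of night, and were moved to pots on day 20 after sowing. Young leaf was sampled in the allotetraploid alone, so leaf age was compared in 1 genotype. The table has no mRNA or protein marker of leaf. Leaf identity therefore rests on the labels. A list of 4 miRNA families linked to the shoot apex and leaf primordia, 3 of them listed, is given further on and does not check it.

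MicroRNAs are cut from hairpin precursors by Dicer-like enzymes and guide an Argonaute protein to complementary RNA, mostly in 21-base form in plants. Breakdown of ribosomal and transfer RNA also leaves short RNAs, which can be sequenced in the same library and have in some cases been named as miRNAs. miR5368 was named in soybean and its sequence is known from the large-subunit rRNA of the plastid; miR6173 was named in the rubber tree and its sequence is known from the plastid small-subunit rRNA; miR2916 was named in a poplar and its sequence is known from the cytosolic small-subunit rRNA. miR894 (named in the moss Physcomitrium), miR4995 (soybean) and miR5072 (rice) are further entries whose standing as miRNAs is in doubt. No rRNA or tRNA sequence was used here, so the origin in that background could not be matched to these sequences, and the 6 families are described by their names and by what the table holds.

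The 14 sequences below are those with a mean of at least 100 reads in a library scaled to per-million size (RPM), taken over the 8 libraries, and they carried nearly all reads of the 6 families. They are shown as the deposited table has them, 5′ to 3′, with the seed (bases 2 to 8) in capitals, and the base ranges refer to merged runs given further on.
miR5368-p5, bases 1 to 19: gATACCACtctggaagagc
miR5368-p5, bases 10 to 27: cTGGAAGAgctagaattc
miR5368-p5, bases 11 to 28: tGGAAGAGctagaattct
miR5368-p5, bases 16 to 33: gAGCTAGAattctaacct
miR5368-p3, bases 26 to 44: tCTAACCTtgtgtcaggac
miR5368-p5, bases 28 to 45: tAACCTTGtgtcaggacc
miR6173, 21 bases: tAGCCGTAaacgatggatact
miR6173, 18 bases: tAGCCGTAaacgatggat
miR6173-p5, 18 bases: cGAATGGGattagatacc
miR2916-p3, 22 bases: aAACGATGccgaccagggattg
miR2916, 19 bases: tGGGGGCTcgaagacgatc
miR894, 21 bases: cGTTTCACgtcgggttcacca
miR5072, 18 bases: tCCCCAGCagagtcgcca
miR4995-p5, 19 bases: aTAGGCAGtggcttggtta

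Each family name covered different seeds. The 28 sequences held 23 different seeds, and 10 of them shared a seed with another member of the same family. Among the sequences shown, the 2 miR6173 entries that begin at the same base had the seed AGCCGTA in common, whereas the 6 miR5368 entries had 6 different seeds.

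Entries of 1 family lay along 1 longer sequence in several cases. In miR5368, 6 entries overlapped and merged into a single run of 45 bases, in which 35 bases were covered by 2 or more entries and up to 4 entries lay over the same base. The run is shown because 6 listed entries lie on it, with capitals where 2 or more entries overlap, and below it the run of the 4 miR4995 entries (24 bases, of which 21 were in at least 2 entries) and both runs of miR6173 (21 and 19 bases).
miR5368 run: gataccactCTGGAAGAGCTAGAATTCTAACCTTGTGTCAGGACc
miR4995 run: tcATAGGCAGTGGCTTGGTTAAGg
miR6173 run 1: TAGCCGTAAACGATGGATact
miR6173 run 2: cGAATGGGATTAGATACCc
The table calls 5 of the 6 overlapping miR5368 entries p5 and the one at bases 26 to 44 p3, although its first 8 bases are also the last 8 of the p5 entry at bases 16 to 33. The entry at bases 1 to 19 was itself named p5 at 1 locus and p3 at another. In all, 18 of the 28 members took part in a merged run.

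Several members differed by 1 base from another entry of their family. Counted from the 5′ end of the 21-base miR894 entry, its 20-base relative differed by T3A and both 19-base forms by G12A. Counted from the 5′ end of the miR5072 entry tCCCCAGCggagtcgcca, the abundant form differed by G9A and another pair by C8T. A pair of rare miR5368 entries differed from the one at bases 16 to 33 by G3C and G1T, counted from the 5′ end of that entry. About 80.5% of the table's read values were whole numbers within 1e-06, and the rest held fractions. No source used here states how a read that matched more than 1 entry was shared out, so the level of such near-identical entries is uncertain.

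Sequence was also shared between families. The run AAACGATG, which stands in the small-subunit rRNAs of both plastid and cytosol, was the start of miR2916-p3 and lay inside both miR6173 entries of 18 and 21 bases. The 21-base miR894 entry shared its last 14 bases, CGTCGGGTTCACCA, with an entry outside the 6 families, miR5077, whose sequence ends in the same way.
miR5077 with the shared bases in capitals: ttccCGTCGGGTTCACCA
All 5 miR5072 entries and the 21-base miR894 entry ended in CCA, the bases that close a mature tRNA. That made 6 of 28 members (21.4%), against 1.59% of the 251 sequences of conserved miRNA families and 3.26% of the 705 sequences outside the 6 families. Of the 50 listed sequences of 9 other families whose standing as miRNAs is also in doubt, 12 (24%) ended in CCA.

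The members were short. Of the 28 sequences, 16 had 18 bases and 8 had 19, so that 85.7% had at most 19 bases, against 8.37% of the conserved families, 18.9% of all other sequences and 58% of the 50 sequences of other doubtful families. The 21-base length, which 51.4% of the conserved sequences had, was found in 2 members (7.14%), the main miR6173 and miR894 entries, and in 10% of the other doubtful sequences. The first base was T in 42.9% of members, against 51.4% of conserved sequences, 39.3% of all other sequences and 16% of the other doubtful sequences. None of the 28 was marked in the table as identical to a miRBase entry, while 14 were marked as different forms and 14 as new. The mark of identity was also rare elsewhere. It was given to 55 of the 705 sequences outside the 6 families, 42 of the 251 conserved ones and 3 of the 50 other doubtful ones.

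**Figure D1:**
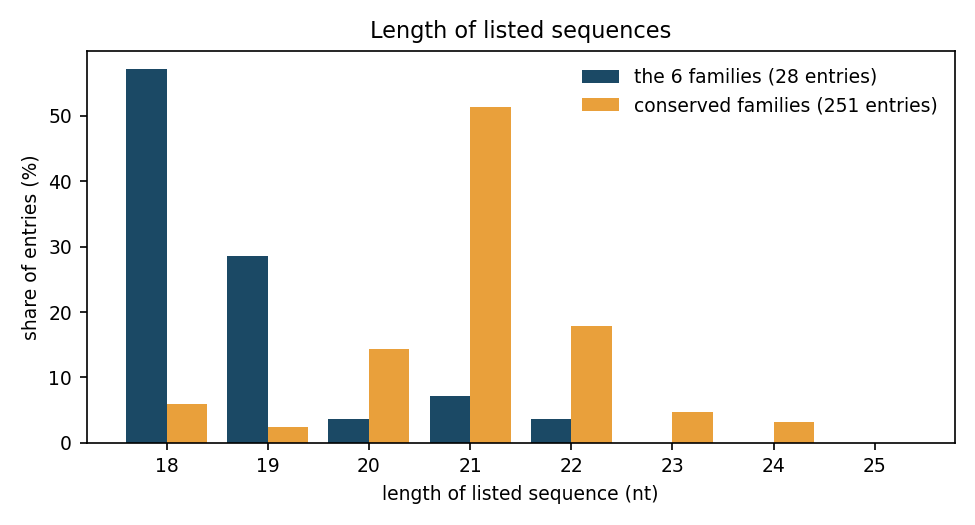
Share of listed sequences (%) at each length in bases, for the 28 members of the 6 families (dark) and 251 sequences of conserved families (light). The members peak at 18 bases with 57.1%, and the conserved families at 21 bases with 51.4%.

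The hairpins listed for these sequences were mostly short, and the folding index of their precursors was mostly low. The median minimal folding free energy index (MFEI, the folding energy of a precursor corrected for its length and GC content) was 0.5 over the 32 lines, against 0.9 for conserved families and 1 for all other lines. It exceeded 0.6 in 2 of the 32 lines (6.25%), against 88.9% of the conserved lines. These were the 21-base miR6173 sequence with an index of 1.2 and the G1T variant of miR5368 with 0.7. The listed hairpin was under 50 bases in 18 of 32 lines (56.2%), against 3.5% of conserved lines, and the median hairpin was 46.5 bases, against 118 bases. The other doubtful families lay between, with a median index of 0.6, an index above 0.6 in 24.6% of lines and a hairpin under 50 bases in 31.9%. These are the authors' values in the table, and 3 of the 32 lines had no genome position. The listed hairpin is not the whole listed interval. For miR2916, a hairpin of 35 bases was listed for an interval of 92, so hairpin length does not give the size of a precursor.

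Several members shared a listed locus. Both miR2916 sequences were placed in 1 interval of 92 bases on the plus strand of chromosome 2, from 12481957 to 12482048. The miR5368 entries at bases 1 to 19 and 26 to 44 lay together on the minus strand of chromosome 2, from 18670792 to 18670881, with a listed hairpin of 15 bases. The 18-base miR6173 entry and a miR6173-p5 entry shared an interval of 49 bases on the minus strand of chromosome 1, from 24056533 to 24056581, with a hairpin of 1 base and an index of 0. Overlapping sequences were also placed far apart: the 6 entries of the miR5368 run had listed loci on chromosomes 1, 2, 3 and 5. No source used here names the genome build behind these coordinates, and no gene annotation was used with them.

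Libraries held between 99196 and 464306 listed reads with each sequence counted once. The shallowest, C. sativus library 2, also stood apart in content. Its ranks of sequences correlated with those of C. sativus library 1 at 0.572 (Spearman), against 0.823 to 0.952 within the other groups. The contrasts with C. sativus, the calls by leaf age and the correlations are therefore also given without it. Nothing in the labels says that the libraries of a group came from separate plants, so the p-values reflect the spread among these 8 libraries alone, and that spread may be technical.

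Taken as 1 set, the 6 families made up 5.57% (95% Wilson interval 5.50 to 5.63) and 6.09% (6.01 to 6.16) of listed reads in young allotetraploid leaf, 15.6% (15.4 to 15.7) and 11.1% (11.0 to 11.2) in mature allotetraploid leaf, 10.4% (10.3 to 10.5) and 12.9% (12.8 to 13.1) in C. hystrix leaf, and 14.6% (14.5 to 14.7) and 56.6% (56.3 to 56.9) in C. sativus. Both young libraries were below all 6 mature ones, 5 mature libraries lay within 10.4 to 15.6%, and C. sativus library 2 was far above the rest. The intervals cover counting error only, and 2 libraries against 2 cannot give an exact two-sided permutation p below 0.33, so these shares carry no test. Conserved miRNA families took 92.6% and 92.2% in young leaf, 81.7% and 87.5% in mature allotetraploid leaf, 87.5% and 84.1% in C. hystrix leaf, and 81.8% and 40.7% in C. sativus.

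A share depends on what else is in the library, and miR166 and miR159 alone filled most of every library but C. sativus library 2. miR166, which represses HD-ZIP III transcription factors in leaf patterning, took 60.6% and 50.3% of listed reads in young leaf, 44.7% and 44.1% in mature allotetraploid leaf, 59.0% and 54.9% in C. hystrix leaf, and 22.2% and 26.3% in C. sativus. miR159, which represses GAMYB-like factors, took 27.9% and 37.5%, 24.1% and 37.6%, 18.3% and 24.1%, and 46.6% and 6.47% in the same libraries. With miR166 and miR159 reads set aside, the 6 families made up 48.4% and 50% of the remaining reads in young leaf, 49.9% and 60.6% in mature allotetraploid leaf, 46.1% and 61.5% in C. hystrix leaf, and 46.8% and 84.2% in C. sativus. On that base the young libraries were within the range of the mature ones, and 7 of the 8 libraries lay between 46.1% and 61.5%.

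**Figure D2:**
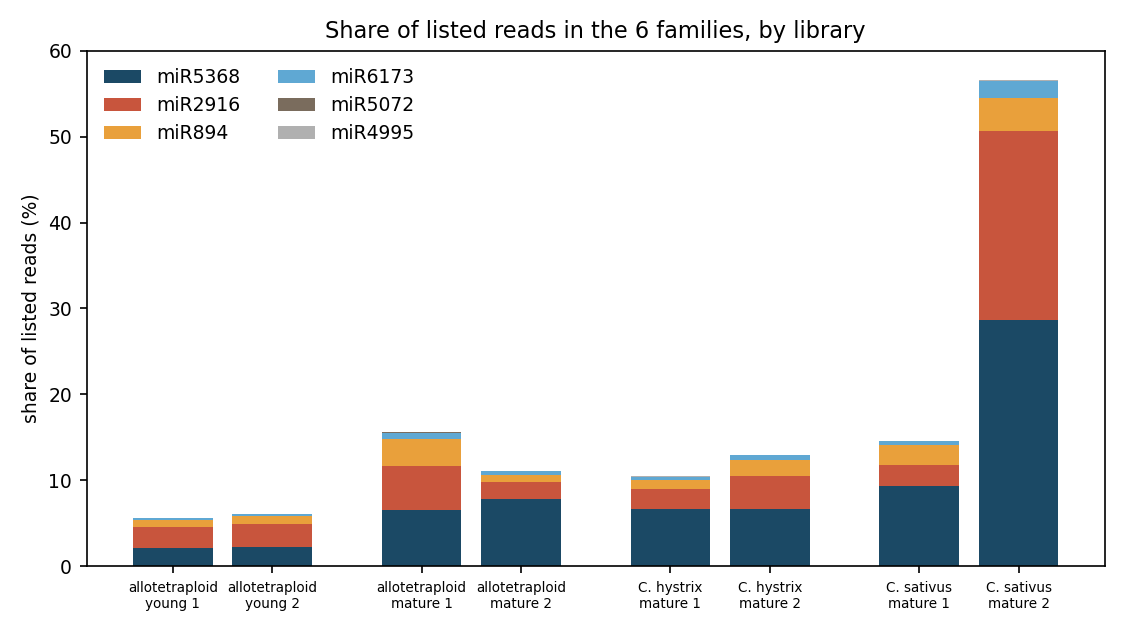
Share of listed reads (%) in each of the 6 families, stacked, for each of the 8 libraries. The young allotetraploid libraries reach 5.57% and 6.09%, 5 mature libraries 10.4 to 15.6%, and C. sativus library 2 56.6%.

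miR5368 was the largest family in all libraries but those of young leaf. It took 2.08% and 2.24% of listed reads in young leaf, 6.47% and 7.77% in mature allotetraploid leaf, 6.70% and 6.64% in C. hystrix leaf, and 9.30% and 28.6% in C. sativus. The mature allotetraploid and C. hystrix overlapped, and all mature libraries were above both young ones. In young leaf miR2916 was larger, with 2.49% and 2.68%, and it took 5.19% and 2.01% in mature allotetraploid leaf, 2.32% and 3.86% in C. hystrix leaf, and 2.5% and 22.1% in C. sativus. Here the young libraries lay inside the range of the mature ones. miR894 came next, with 0.846% and 0.955% in young leaf, 3.17% and 0.861% in mature allotetraploid leaf, 1.02% and 1.83% in C. hystrix leaf, and 2.33% and 3.81% in C. sativus, and its mature allotetraploid libraries lay on both sides of C. hystrix.

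The other families were small. miR6173 took 0.135% and 0.186% of listed reads in young leaf, 0.651% and 0.429% in mature allotetraploid leaf, 0.363% and 0.572% in C. hystrix leaf, and 0.386% and 1.94% in C. sativus. It was below 2% in every library and lower in both young libraries than in any mature one. miR5072 lay between 0.0106% and 0.0852%, and miR4995 between 0.00194% (interval 0.00102 to 0.00368) and 0.0907% (0.0738 to 0.111). The low end of the miR4995 range was in young leaf and the high end in C. sativus library 2.

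The balance between the large families changed from library to library. Reads of miR5368 divided by reads of miR2916 gave 0.833 and 0.835 in young leaf, 1.25 and 3.88 in mature allotetraploid leaf, 2.89 and 1.72 in C. hystrix leaf, and 3.72 and 1.30 in C. sativus. This ratio needs no scaling between libraries. It was below 1 in both young libraries, which lay close together, and above 1 in all mature ones, which spread widely within the allotetraploid and within C. sativus. In C. sativus library 2, which held the most of both families, the ratio was near the low end of the mature range.

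**Figure D3:**
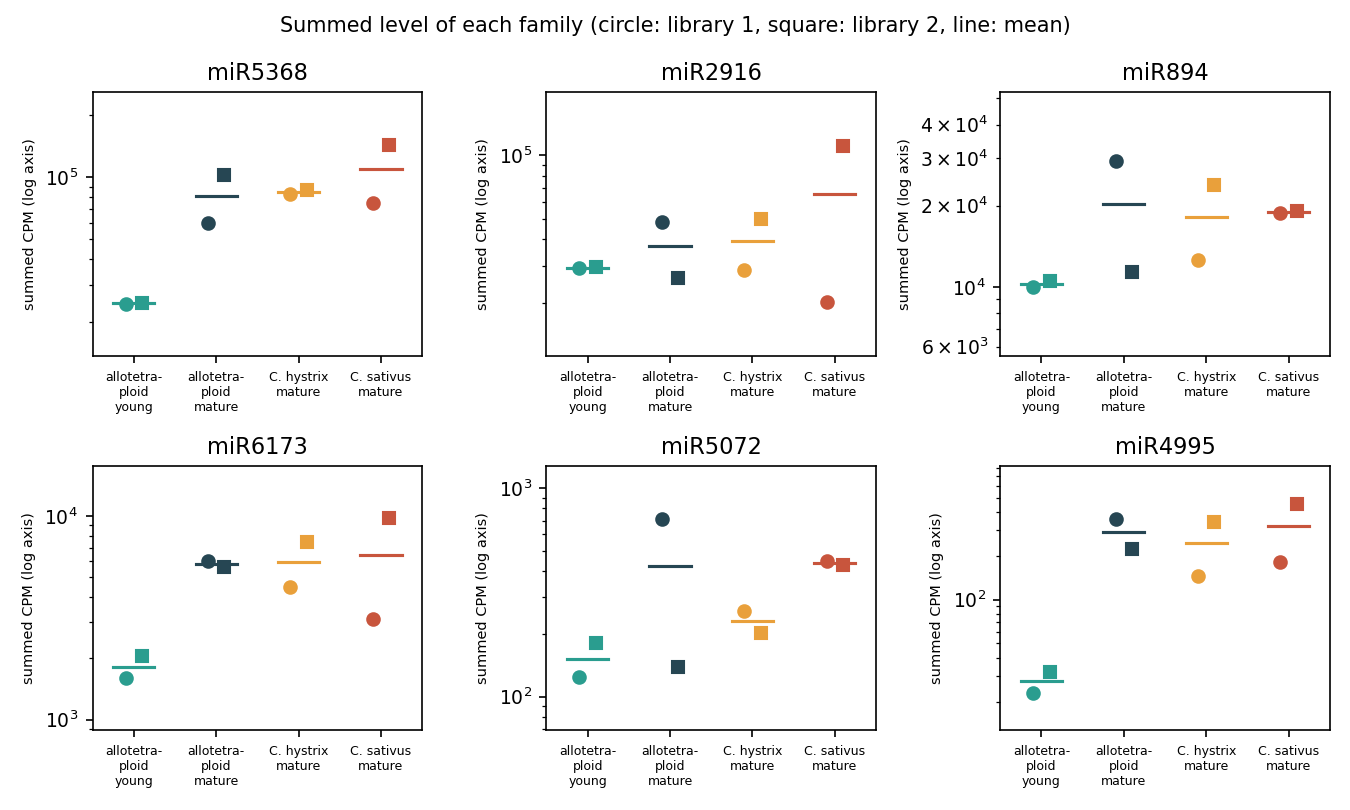
Summed level of each family in counts per-million (CPM) after TMM scaling, on log axes, with a circle for library 1, a square for library 2 and a line for their mean in each of the 4 groups. miR5368, miR6173 and miR4995 are lower in both young libraries than in any mature library, whereas miR2916, at 29352 and 29537 CPM in young leaf, is not.

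Within miR5368 the reads sat at the 5′ end of the 45-base run. Levels of single entries are given in CPM (counts per-million) after TMM scaling, an adjustment of library size for composition. The entry at bases 1 to 19 had 19330 and 18465 CPM in young leaf, 45923 and 77520 in mature allotetraploid leaf, 62303 and 56077 in C. hystrix leaf, and 69120 and 117505 in C. sativus. Both young libraries were below all mature ones, and the mature allotetraploid enclosed C. hystrix. This entry held 64.9 to 92.1% of the family's reads in each library.

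The p3 entry at bases 26 to 44 was second, with 2256 and 2696 CPM in young leaf, 7343 and 16725 in mature allotetraploid leaf, 11816 and 24642 in C. hystrix leaf, and 1617 and 17516 in C. sativus. Here C. sativus library 1 was the lowest of all 8 libraries. The entry at bases 1 to 19 exceeded the p3 entry by 8.57 and 6.85 times in young leaf, 6.25 and 4.64 times in mature allotetraploid leaf, 5.27 and 2.28 times in C. hystrix leaf, and 42.7 and 6.71 times in C. sativus. The C. sativus libraries thus differed from each other in this ratio by more than any other groups' libraries did.

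Entries in the middle and at the end of the run were lower. The one at bases 16 to 33 had 1207 to 4646 CPM over the 8 libraries, with both young libraries lowest. Those at bases 10 to 27 and 11 to 28, which differ by a shift of 1 base, had 338.3 to 2397 and 229.4 to 1964 CPM, highest in mature allotetraploid library 2. The entry at bases 28 to 45 had 841.4 and 1406 CPM in young leaf, 1588 and 940.9 in mature allotetraploid leaf, 1784 and 1132 in C. hystrix leaf, and 526.8 and 1210 in C. sativus, and it was the one piece of the run whose young and mature allotetraploid libraries overlapped. The last 3 miR5368 entries stayed low: the one outside the run that begins cTTGGATT had a mean of 93.8 RPM, just under the bound of 100, and the G3C and G1T variants had at most 21.26 CPM.

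**Figure D4:**
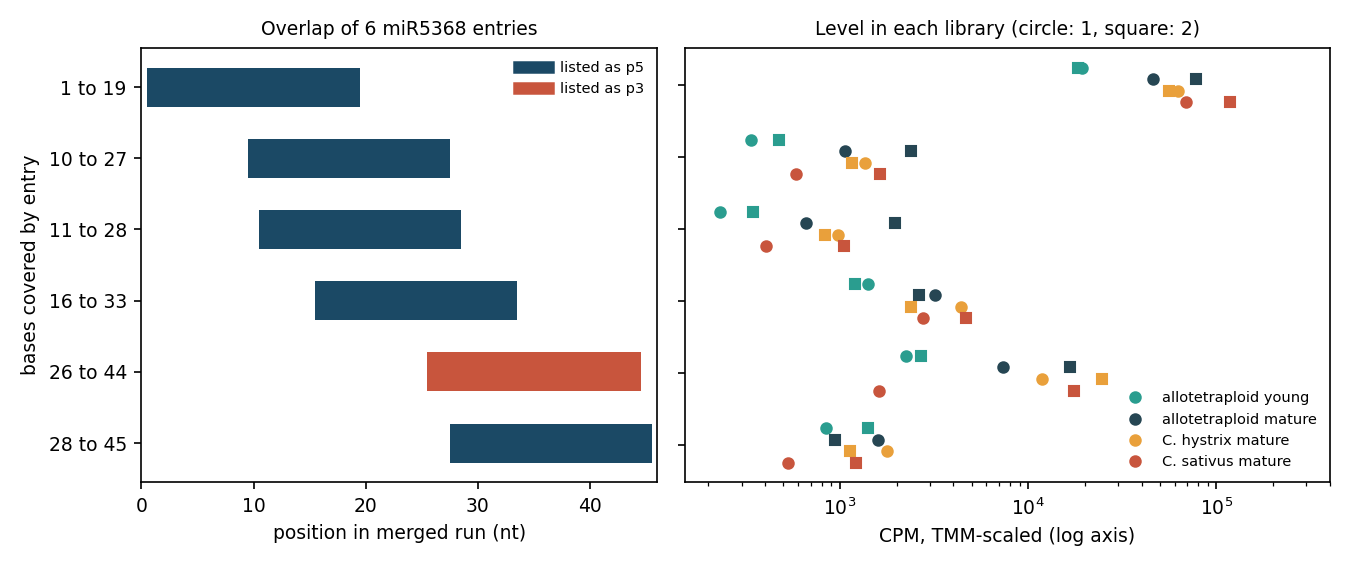
Left, the bases of the merged 45-base run covered by each of 6 miR5368 entries; right, the level of each entry in every library in CPM after TMM scaling (log axis; circle library 1, square library 2). The entry at bases 1 to 19 is highest in every library, at 18465 to 117505 CPM.

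In miR6173 the 21-base entry carried the family. It had 1546 and 1938 CPM in young leaf, 5549 and 5298 in mature allotetraploid leaf, 4174 and 6926 in C. hystrix leaf, and 2747 and 9409 in C. sativus. Both young libraries were lowest, and the C. sativus libraries enclosed those of the other mature groups. Its 18-base form, which ends 3 bases earlier, had 32.95 and 55.38 CPM in young leaf, 344.9 and 167 in mature allotetraploid leaf, 198.4 and 282.9 in C. hystrix leaf, and 259.2 and 131.6 in C. sativus. The 21-base form exceeded the 18-base form by 46.9 and 35.0 times in young leaf, 16.1 and 31.7 times in mature allotetraploid leaf, 21 and 24.5 times in C. hystrix leaf, and 10.6 and 71.5 times in C. sativus. The C. sativus libraries were the extremes of this ratio. The abundant p5 entry, at the lowest mean of those shown (130 RPM), had 12.67 and 40.81 CPM in young leaf and 80.78 to 202.4 CPM in the 6 mature libraries, and its neighbour shifted by 1 base had at most 29.47 CPM.

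miR2916-p3, the second most abundant member, had 24522 and 24083 CPM in young leaf, 41429 and 22648 in mature allotetraploid leaf, 23437 and 45505 in C. hystrix leaf, and 14658 and 100052 in C. sativus. Its libraries of every group overlapped those of every other group. The 19-base miR2916 entry from the same listed interval had 4830 and 5454 CPM in young leaf, 6705 and 3746 in mature allotetraploid leaf, 5141 and 4704 in C. hystrix leaf, and 5530 and 10654 in C. sativus. Reads of the p3 entry over those of the 19-base entry came to 5.08 and 4.42 in young leaf, 6.18 and 6.05 in mature allotetraploid leaf, 4.56 and 9.67 in C. hystrix leaf, and 2.65 and 9.39 in C. sativus. The 2 libraries of each allotetraploid group were thus closer to each other in this ratio than those of either parent, where it differed widely within a group.

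miR894 was almost entirely its 21-base entry, which held 99.1 to 99.8% of the family's reads. It had 9936 and 10478 CPM in young leaf, 29228 and 11272 in mature allotetraploid leaf, 12454 and 23749 in C. hystrix leaf, and 18620 and 18951 in C. sativus. Both young libraries were lowest, by a small margin to mature allotetraploid library 2. The T3A form had 7.603 to 144.2 CPM. The G12A forms had at most 25.24 and 72.37 CPM, and both were without a read in mature allotetraploid library 2. A count of 0 there allows up to 7.93 RPM.

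In miR5072 the G9A form led, with 78.56 and 81.62 CPM in young leaf, 559.8 and 111.3 in mature allotetraploid leaf, 173.6 and 53.05 in C. hystrix leaf, and 269.3 and 258.1 in C. sativus. The highest library was one of mature allotetraploid leaf and the lowest one of C. hystrix, so that the young libraries lay inside the mature range. It held 26.1 to 80% of the family's reads. The 19-base C8T form had no read in mature allotetraploid library 2 and C. sativus library 2, against 129.6 CPM in C. sativus library 1, and a count of 0 allows up to 7.93 and 30.2 RPM in those libraries. The other 3 forms had at most 129.1 CPM.

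miR4995 was the least abundant. Its p5 entry, the highest of the family, had 2.534 and 29.15 CPM in young leaf, 170.2 and 76.53 in mature allotetraploid leaf, 67.32 and 206.3 in C. hystrix leaf, and 121.2 and 308.7 in C. sativus. Both young libraries were below every mature one. The 18-base entry at bases 6 to 23 of the miR4995 run, named here because it had the smallest p of the members in the comparison of leaf ages and so chosen after its values were seen, had 16.47 and 2.915 CPM in young leaf, 143.3 and 114.8 in mature allotetraploid leaf, 49.6 and 88.42 in C. hystrix leaf, and 35.34 and 118.9 in C. sativus. These are small numbers: the young libraries held 6.5 and 1 reads of it and the mature allotetraploid libraries 32 and 33. The remaining miR4995 entries had at most 35.37 CPM.

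To compare groups, edgeR's quasi-likelihood test was fitted to all 8 libraries and 208 sequences that passed its filter on low counts, with Benjamini-Hochberg adjustment over the 208 sequences and a threshold of 0.05. Of the 28 members 21 passed the filter, and 7 were too rare to test. Young over mature leaf of the allotetraploid asks what changes with leaf age. None of the 21 was called higher or lower in that fit, where 0% of all tested sequences were called higher and 1.92% lower. At an unadjusted p under 0.05, 5 of the 21 were lower in young leaf and 0 higher, where 20 of all 208 tested sequences were lower (9.62%) and 7 higher (3.37%).

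Most estimates were below 0 in spite of this. Of the 21 tested members 19 had a log2 fold change below 0 and 2 above, with a median of -1.64, against -0.03 over all tested sequences and 0.22 over the conserved families. Both young libraries were below both mature allotetraploid ones for 14 of the 21, against a background of 29.8%, and above them for 0, against 34.1%. Under every scaling tried the median of the members stayed below that of all sequences. It was -1.47 with the authors' own constants, where the median of all sequences was 0.15, and -1.96 with scaling to the conserved families, where that of all sequences was -0.35; between 17 and 21 of the 21 estimates were below 0.

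Estimates varied within families as well as between them. The entry of miR5368 at bases 1 to 19 had a log2 fold change of -1.71 ± 0.71 (SE, adjusted p = 0.28, edgeR) and the p3 entry at bases 26 to 44 one of -2.28 ± 1.08 (adjusted p = 0.38), while the entry at bases 28 to 45 had -0.17 ± 1.01 (adjusted p = 0.94). The miR6173 entries of 21 and 18 bases had -1.64 ± 1.02 and -2.52 ± 1.10 (adjusted p = 0.56 and 0.32, edgeR). For miR2916 the estimates were -0.40 ± 0.87 for p3 and -0.02 ± 0.94 for the 19-base entry (adjusted p = 0.83 and 0.98, edgeR). The main miR894 entry had -0.99 ± 0.85 and the G9A form of miR5072 -2.06 ± 1.13 (adjusted p = 0.79 and 0.50, edgeR). The miR4995 entry at bases 6 to 23 had the lowest, -3.75 ± 1.42 (adjusted p = 0.22, edgeR). Whether families differed from each other in their change with leaf age was not tested.

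Calls depended on which libraries entered the fit. With the 4 allotetraploid libraries fitted alone, 10 of the 19 members tested there were called lower in young leaf, against a background of 14.9% lower and 6.47% higher among 201 sequences. They were 4 miR5368 entries, 3 of miR6173, 2 of miR4995 and the G9A form of miR5072, with log2 fold changes of -1.69 to -3.78. Among them were the entries at bases 1 to 19 (-1.79 ± 0.60, adjusted p = 0.042, edgeR) and 26 to 44 (-2.38 ± 0.60, adjusted p = 0.01, edgeR) and the 21-base miR6173 entry (-1.69 ± 0.52, adjusted p = 0.034, edgeR). No entry of miR2916 or miR894 was among the 10. Both miR2916 entries were tested there, the 19-base entry and p3 (adjusted p = 0.96 and 0.63, edgeR). Not all members tested in the fit of 8 libraries passed the filter of this smaller fit, and those could not be called in it. Leaving out 1 library of C. sativus, a group outside this comparison, also gave calls, in fits whose filter kept 300 and 303 sequences in place of 208: 8 members were lower without C. sativus library 1 (background 7.67% lower, 3% higher) and 5 without library 2 (background 5.28% lower, 2.64% higher). DESeq2 on all 8 libraries called 2 lower (background 8.38% lower, 3.35% higher).

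**Figure D5:**
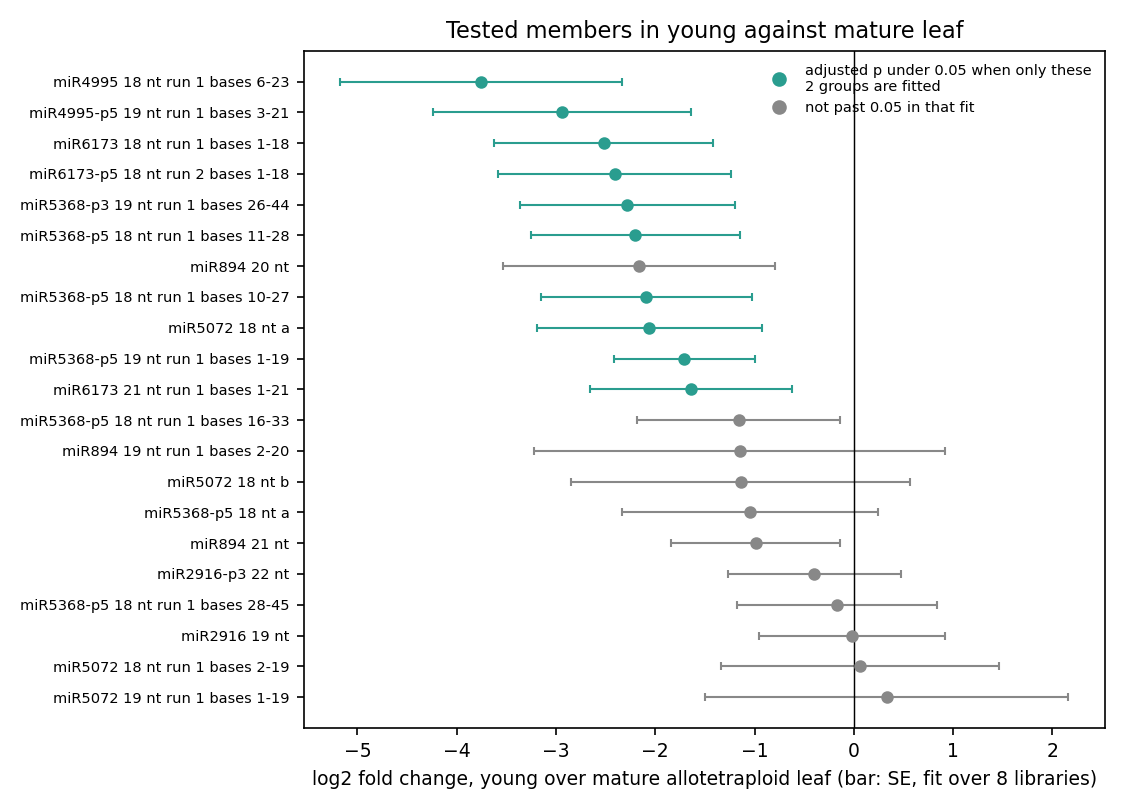
Log2 fold change of young over mature allotetraploid leaf for each of the 21 tested members, with its SE from the fit of all 8 libraries; coloured points passed an adjusted p of 0.05 when the 4 allotetraploid libraries were fitted alone. The 10 coloured points lie between -1.64 and -3.75, and the grey ones reach from -2.16 to 0.33. Only 19 of the 21 members were tested in the fit of 4 libraries, so grey also marks members not tested there.

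Sums per family were fitted on their own scaling. Over 86 features the miR4995 sum was at -3.25 ± 1.21 (SE, adjusted p = 0.13, edgeR), miR5368 at -1.70 ± 0.94 (0.67), miR6173 at -1.60 ± 1.03 (0.70), miR5072 at -1.25 ± 1.00 (0.81), miR894 at -0.82 ± 1.02 (0.81) and miR2916 at -0.20 ± 0.94 (0.90), with the adjusted p in brackets. None of the 6 was called, with a background of 3.49% lower. Without C. sativus library 2, 3 of the 6 sums were called lower in young leaf by edgeR (background 2.82%): miR4995 at -3.44 (adjusted p = 0.0023), miR5368 at -1.74 (0.0043) and miR6173 at -1.73 (0.038). The same 3 were called without C. sativus library 1 (background 2.72%), and DESeq2 on all 8 libraries called miR4995 alone (background 4.65%).

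Other listed RNAs also had different shares at the 2 leaf ages, with no test. A list of 4 families known from phloem sap (miR395, miR398, miR399 and miR2111, all 4 present) took 0.159% and 0.119% of listed reads in young leaf and 3.68% and 0.376% in mature allotetraploid leaf. The list linked to the shoot apex (miR164, miR166 and miR394 found, miR165 not listed) took 60.8% and 50.5% in young leaf and 44.9% and 44.2% in mature allotetraploid leaf, nearly all of it miR166. Their part in the lower estimates of the 6 families was not tested. Fewer plastids or cells of a kind and less of an RNA per cell cannot be told apart in whole leaf.

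Mature allotetraploid leaf was then set against each parent. Such a contrast also holds the genome of the other parent, so species difference, hybridity, genome doubling and selfing cannot be told apart in it. Against C. hystrix no member was called (background 0% in both directions), no member and none of the 208 sequences had an unadjusted p under 0.05, and the smallest adjusted p was 0.98 in edgeR. Without C. sativus library 2 in the fit, the G9A form of miR5072 had an unadjusted p of 0.048 at a log2 fold change of 1.47 (background 1.32% higher; adjusted p = 0.99, edgeR). The median log2 fold change of the 21 was 0.09, against 0.17 over all tested sequences. The entry of miR5368 at bases 1 to 19 had 0.06 ± 0.70 and miR2916-p3 had -0.11 ± 0.87 (SE). Both allotetraploid libraries were above both C. hystrix libraries for 2 members (background 8.17%) and below for 0 (background 10.6%).

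Against C. sativus, too, no member was called (background 0.481% higher, 0% lower), none had an unadjusted p under 0.05 (background 4.33% higher, 1.92% lower), and the smallest adjusted p was 0.92 in edgeR. The median was 0.03 over the members and 0.16 over all tested sequences. Its sign followed the scaling, and without C. sativus library 2 it was 0.42 over the members and 0.18 over all. By library totals alone all 21 members had estimates below 0, with a median of -0.96 while that of all sequences was -0.55, so no direction is given. The entry at bases 1 to 19 had -0.60 ± 0.70 and miR2916-p3 -0.84 ± 0.87 (SE), and without C. sativus library 2 they had 0.16 and 1.36. In that fit, where 1 library stood for C. sativus and was assumed to vary like the others, 3 members had an unadjusted p under 0.05 and were higher in mature allotetraploid leaf (background 7.92% higher). They were the miR5368 entries at bases 26 to 44 (3.24, adjusted p = 0.084, edgeR), 11 to 28 (2.06) and 10 to 27 (1.93). Both allotetraploid libraries were above both C. sativus libraries for 0 members (background 19.2%) and below for 1 (background 10.6%).

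C. hystrix against C. sativus, the contrast of the parents, gave no call among the members (background 0.962% higher, 0% lower), none with an unadjusted p under 0.05 (background 5.29% higher, 1.44% lower), and a smallest adjusted p of 0.96 in edgeR. The median of the members was -0.21, against -0.11 over all tested sequences, and turned to 0.64 without C. sativus library 2. Without that library 2 members had an unadjusted p under 0.05 and were higher in C. hystrix (background 7.59% higher), the miR5368 entries at bases 26 to 44 (3.78, adjusted p = 0.058, edgeR) and 28 to 45 (1.73). Both C. hystrix libraries were below both C. sativus libraries for 4 members (background 12.5%) and above for 0 (background 18.8%). Mature allotetraploid leaf against the mean of its parents on the log2 scale gave no call either (background 0% in both directions), with a median of -0.01, or 0.39 without C. sativus library 2, and a smallest adjusted p of 0.99 in edgeR. No member had an unadjusted p under 0.05 there (background 1.44% higher, 0% lower), and without C. sativus library 2 the miR5368 entries at bases 26 to 44, 11 to 28 and 10 to 27 did, each higher than the mid-parent (background 6.27% higher; adjusted p = 0.57, edgeR). These 4 contrasts share libraries and are not independent of each other.

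Sums per family were not called in these contrasts in the fit of all 8 libraries (background 1.16% higher and 0% lower in both contrasts with C. sativus, 0% with C. hystrix and the mid-parent). With C. sativus library 1 left out, so that library 2 alone stood for that species, edgeR called miR2916, miR5368 and miR6173 lower in mature allotetraploid leaf than in C. sativus (background 7.48%), at -2.68, -1.98 and -1.87 on the log2 scale. It then called 5 sums, all but miR894, lower in C. hystrix than in C. sativus (background 8.84%) and miR2916 below the mid-parent (background 1.36%). With library 2 left out in its place, none of these contrasts gave a call, so these calls rest on C. sativus library 2.

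The families also varied together to different degrees over the 8 libraries. On log2 CPM, Pearson's r was 0.95 between miR6173 and miR4995, 0.91 between miR5368 and miR4995, and 0.90 between miR5368 and miR6173. It was 0.45 between miR5368 and miR2916. Without C. sativus library 2 the same pairs had 0.95, 0.89, 0.86 and 0.06 over 7 libraries. miR894 and miR5072, the families with entries ending in CCA, had 0.80, or 0.79 without that library. A similar value, 0.78 with and without that library, was found for miR894 and miR4995, which has no entry ending in CCA. These are descriptions: the libraries fall into 4 groups and share depth and scaling.

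Among tested sequences outside the 6 families, the 5 most like the summed level of the 6 were miR5077 (r = 0.90 over 8 libraries), miR8175 (0.88), miR393a (0.88), miR408-5p (0.82) and miR396c-3p (0.82). Without C. sativus library 2 the same sequences had 0.81, 0.83, 0.76, 0.82 and 0.96 over 7 libraries. miR5077, which shares 14 bases with miR894, had 16.47 and 10.2 CPM in young leaf, 58.22 and 29.57 in mature allotetraploid leaf, 17.71 and 100.2 in C. hystrix leaf, and 30.29 and 311.3 in C. sativus. The miR8175 entry had 338.3 and 300.2 CPM in young leaf, 795 and 530.5 in mature allotetraploid leaf, 380.9 and 875.3 in C. hystrix leaf, and 427.5 and 4173 in C. sativus. In both, C. sativus library 2 was the highest by far. It was also highest for the summed CPM of miR5368, miR6173, miR2916 and miR4995. For miR894 and miR5072 mature allotetraploid library 1 was higher, at 29349 against 19103 CPM and 708 against 428 CPM. miR8175 also ends in CCA, and its sequence is shown for that reason.
miR8175: cGATCCCCggcaacggcgcca

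Other families of doubtful standing did not follow the 6 everywhere. Together 50 sequences of 9 such families, among them miR6300, miR5139, miR6478 and miR8155, took 0.561% and 0.636% of listed reads in young leaf, 1.44% and 0.442% in mature allotetraploid leaf, 0.583% and 0.519% in C. hystrix leaf, and 2.49% and 0.343% in C. sativus. In C. sativus library 2 they were at their lowest share while the 6 families were at their highest. miR8155 took 1.42% of reads in C. sativus library 1 and 0.0192% in library 2, and miR5139 0.754% and 0.0333%. For young over mature allotetraploid leaf the 22 tested sequences of these families had a median log2 fold change of -0.71, with 21 of the 22 below 0 and 0 called by edgeR.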

How the data were processed

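Small RNA of 8 leaf libraries was analysed from 1 deposited table. Per the labels' protocols, TRIzol was used to extract total RNA; oligo(dT) beads are mentioned too, with no separate small RNA protocol. The submitters' processing notes list Bowtie 0.12.8 with no role. No source used here names the genome build, miRBase release or counting rule. Per the file headers, the authors deposited raw reads per entry, here treated as estimated counts because some hold fractions, and normalized reads, a signal equal to raw reads times 1 constant per library. The deposited table also gives the GC percent of each precursor, lengths and, as scores, folding energy and MFEI. Values of a sequence were equal at all its loci, so 1 was taken. Every per-sample column was matched to a sample through its header and the sample title.

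Reads were rounded to whole numbers and fitted with edgeR 4.0.16 (TMM, filterByExpr, robust quasi-likelihood test, group as the only term) in R 4.3.3 over 208 sequences, with Benjamini-Hochberg adjustment; the code was tested on simulated data. The replicate numbers come from the sample titles. Shares have 95% Wilson intervals; a count of 0 was given a limit of 3 counts. Both cover counting error only. Alternatives were other scalings, filters, tests (DESeq2 1.42.0, limma 3.58.1), sums over loci, fewer groups, a replicate block and leaving out each library. Members with a mean of at least 100 RPM, any called and the highest of each family were to be named, with the 5 non-members most like their sum. Further non-members most like each family were computed and are not reported. The members, lists and rules were chosen with earlier results of these data known.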

Additional observations from a re-analysis of the deposited data

How the results depend on the processing

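The shallowest library, C. sativus library 2, held 99196 listed reads. For young over mature allotetraploid leaf, 0 of 21 members were called lower in the fit of 8 libraries (background 1.92%) and 2 by DESeq2 (background 8.38%). With the 4 allotetraploid libraries alone, 10 of 19 were called lower (background 14.9%). Of the 6 family sums, DESeq2 called 1 lower, miR4995 (background 4.65%). Calls of members and of sums also changed when a C. sativus library was left out, as given above, and the cause was not tested. Without C. sativus library 1, which leaves its group a lone library assumed to vary like the others, edgeR called 3 sums lower in mature allotetraploid leaf than in C. sativus (background 7.48%), 5 lower in C. hystrix than in C. sativus (background 8.84%) and 1 below the mid-parent (background 1.36%); leaving out any other library gave 0 in those contrasts. Members called between mature groups stayed at 0 in every setting. In the fit of 8 libraries the background was 0% against C. hystrix and against the mid-parent. It was 0.481% higher for mature allotetraploid leaf over C. sativus and 0.962% higher for C. hystrix over C. sativus. Without C. sativus library 1 more of all sequences were called in the contrasts that hold C. sativus, so a 0 does not mean the same in every setting. Deviations from the group mean, in libraries of the same replicate number, correlated between groups at -0.0459 to 0.328. The highest was between young allotetraploid leaf and C. hystrix leaf. Whether libraries of the same number shared a batch was not tested. With the replicate block 0 members and 0 family sums were called in every comparison. Of all 208 sequences, that fit called 9 for leaf age and 3 for C. hystrix against C. sativus. It called 1 for mature allotetraploid leaf against C. sativus, and 0 against C. hystrix and the mid-parent. So few calls over all sequences leave little to read from the 0 of the members. The mean share of the 6 families was 5.83% in young leaf, 13.3% in mature allotetraploid leaf, 11.7% in C. hystrix and 35.6% in C. sativus. With 1 library left out it was 5.57 to 6.09%, 11.1 to 15.6%, 10.4 to 12.9% and 14.6 to 56.6% in that order. Summed over loci it was 3.21% in young leaf, 8.78% in mature allotetraploid leaf and 6.91% in C. hystrix, and without miR166 and miR159 reads 49.2%, 55.2%, 53.8% and, in C. sativus, 65.5%. Estimates near 0 changed sign, none of them called. For young over mature leaf the 19-base miR2916 entry (-0.02) was at 0.08 with RLE scaling and with DESeq2, 0.14 without a filter, 0.02 with at least 10 reads in 4 libraries, 0.05 with limma-voom and 0.17 with the authors' constants, an alternative chosen after seeing the data; it was at 0.10 and 0.21 without young library 1 and mature library 1, and at -0.26 to 0.21 over all libraries left out. The miR5368 entry at bases 28 to 45 was at 0.01 without a filter and with the authors' constants, and at -0.68 to 0.19 over all libraries left out. The miR2916 sum was at -0.72 to 0.14 and the miR5072 sum at -2.22 to 0.12 with 1 library left out, both highest without mature library 1. For mature allotetraploid leaf over C. hystrix, the entry at bases 1 to 19 was at -0.14 without a filter, -0.03 over loci and -0.52 to 0.59 with 1 library left out, and miR2916-p3 at 0.20 by library totals, 0.03 with the stricter filter, 0.10 with the replicate block, 0.09 without mature library 2 and -0.61 to 0.49 with any library left out. With 1 library left out the same 2 entries were at -1.25 to 0.16 and -1.82 to 1.36 over C. sativus, at -1.13 to 0.04 and -1.66 to 1.52 for C. hystrix over C. sativus, and at -0.89 to 0.19 and -0.99 to 0.61 over the mid-parent. The values above 0 came without C. sativus library 2, as did 0.14 for the entry at bases 1 to 19 over the mid-parent, where 0.19 came without mature library 1.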
